A study of Mus musculus with 4 samples.

Results

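The suppressor of cytokine signalling (SOCS) family, Cish and Socs1 to Socs7, and the kinase genes Pim1 and Pim2 were followed in regulatory T (Treg) cells that had been differentiated in vitro from mouse naive T cells, with and without Cre-mediated deletion of Junb. These 10 genes were chosen by name from the 36862 gene names of usable probes, and all 19 of the 56605 probes on the array that carry one of these names are reported. Of the 19 probes, 18 were bright enough to be tested and 17 were well above background on all 4 arrays. RNA came from Junbfl/flCd4-Cre cells, with both Junb alleles floxed and Cre driven by the Cd4 promoter, which is active in T cells, and from Control cells with the same Junbfl/fl alleles and no Cre in the label, 2 arrays per genotype. All mice were C57BL/6, and no age is given. Before RNA extraction, sorted naive CD4 T cells of both genotypes spent 3 days on plate-bound anti-CD3 (1 μg/ml) with anti-CD28 (0.5 μg/ml), antibodies against IFN-γ and IL-4 (5 μg/ml each) and TGF-β1 (5 ng/ml). The labels leave unsaid if arrays of the same genotype stem from different animals, so p-values cover only the spread between these samples, which may be technical. In RNA from a whole culture, fewer cells that express a gene and less of its RNA per cell cannot be told apart.

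Cytokines such as IL-2 act through receptors that carry Janus kinases (JAKs), which phosphorylate STAT transcription factors. STATs induce genes of the SOCS family, whose proteins bind receptors or JAKs through an SH2 domain, shut the signal down and, through the SOCS box, recruit a ubiquitin ligase. Cish, Socs1, Socs2 and Socs3 are the members best known as cytokine-induced feedback inhibitors, while Socs4 to Socs7 are mostly linked to receptor tyrosine kinases. Pim1 and Pim2 encode serine/threonine kinases that are also induced by cytokines through STATs, and they promote survival and growth. In Treg cells, IL-2 signalling through STAT5 maintains Foxp3, and Socs1 is known to restrain IFN-γ signalling.

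STAT5 and related STATs bind the palindrome TTCNNNGAA, and AP-1, the dimer to which JunB belongs, binds TGANTCA. Promoters of Cish, Socs3 and Socs1, picked with the values of these genes known, are shown because they differ in this palindrome. None of these genes was called in the fit described below. Each sequence runs 5′ to 3′ on the strand of the gene, from 250 bases before the RefSeq start to 20 after it, on build GRCm38.p6, and capitals mark every match to TTCNNNGAA. The windows lie at chr9:107296409-107296678 on the plus strand for Cish, chr11:117969347-117969616 on the minus strand for Socs3 and chr16:10785517-10785786 on the minus strand for Socs1.
Cish: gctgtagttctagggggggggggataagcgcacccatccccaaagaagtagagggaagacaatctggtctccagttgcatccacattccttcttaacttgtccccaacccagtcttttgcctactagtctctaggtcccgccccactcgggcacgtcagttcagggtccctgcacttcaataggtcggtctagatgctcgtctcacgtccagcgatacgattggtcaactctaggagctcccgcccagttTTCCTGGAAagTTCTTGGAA
Socs3: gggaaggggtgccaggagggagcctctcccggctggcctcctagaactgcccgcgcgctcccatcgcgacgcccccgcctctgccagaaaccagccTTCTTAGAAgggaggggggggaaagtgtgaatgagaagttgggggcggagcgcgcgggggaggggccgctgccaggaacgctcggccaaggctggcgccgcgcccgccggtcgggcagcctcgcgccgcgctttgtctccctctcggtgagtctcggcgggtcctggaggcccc
Socs1: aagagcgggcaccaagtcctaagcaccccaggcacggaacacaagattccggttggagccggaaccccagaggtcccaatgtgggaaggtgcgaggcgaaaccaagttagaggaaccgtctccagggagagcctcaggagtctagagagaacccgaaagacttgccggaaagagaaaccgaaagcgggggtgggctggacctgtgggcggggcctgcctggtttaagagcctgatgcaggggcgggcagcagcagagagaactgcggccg
The Cish window holds 2 matches just downstream of the start, TTCCTGGAA at bases 1 to 9 and TTCTTGGAA at bases 12 to 20, counted from 1 at the start. The Socs3 window holds 1 match, TTCTTAGAA, at bases -154 to -146 before the start. No match lies in the Socs1 window. The RefSeq promoter table held 7 windows of 6 of the 10 genes, with 1 each for Pim2 and Socs4 and 2 for Pim1, and the palindrome was in none of these. No window was held for Socs2, the gene called below, nor for Socs5, Socs6 or Socs7. Among all 32851 promoter windows of this length, 7.58% hold at least 1 match and 0.368% hold at least 2. TGANTCA was in 0 of the 7 windows and in 7.23% of all. Both motifs read the same on either strand and no match to one overlaps the other. A match is a run of letters and not a measured binding site.

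Signals are given as multiples of the 75th percentile of the processed signal on the same array, so that 1 is the level of a moderately bright probe. Differences are Junbfl/flCd4-Cre minus Control on the log2 scale, with the standard error of a limma fit over all 33605 tested probes, and adjusted p-values are from that fit by the Benjamini-Hochberg method (n = 2 arrays per genotype). A probe is called at an adjusted p under 0.05. With 2 arrays per genotype an exact permutation test cannot go below 0.333, so none was run.

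Junb itself was read first. Its probe nearer the 5′ end of the transcript, at chr8:87501881-87501940 (mm9, minus strand), gave 0.0344 and 0.0146 on Junbfl/flCd4-Cre arrays 1 and 2, not well above background, against 0.312 and 0.219 on the Control arrays. That is a level at least 5.71-fold lower (limma adjusted p = 0.0396). Its probe at the 3′ end, at chr8:87500843-87500902, gave 8.82 and 99.8 on Junbfl/flCd4-Cre arrays 1 and 2, against 64.7 and 62.7 on the Control arrays. By the 3′ probe array 2 did not follow its label, and the third Junb probe was not well above background on any array. The labels do not say which stretch of Junb is removed, so whether the 3′ probe lies inside it is unknown here. For this reason the values on Junbfl/flCd4-Cre array 1 and array 2 are given apart throughout, and every direction rests on the labels.

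Socs2 was the gene of the 10 that passed the test, and it fell on both of its NM_007706 probes. Across the family, 9 of the 10 genes had a lower level in Junbfl/flCd4-Cre cells by their brightest probe, against 49.5% of all tested genes. The median difference was -0.35 in the brightest 20% of tested probes and 0.68 in the dimmest 20%. None of the members' brightest probes was in the dimmest class, and what part brightness has in this count was not tested. With arrays scaled to their median all 10 were lower, as Socs5 turned negative. That scaling also moved the median difference over all tested probes to -0.54, so the count of 10 partly follows the scale. The differences of Cish, Socs1, Socs2 and Socs3 were the 4 most negative. The 2 called probes are 11.1% of the 18 tested, against 6.78% of all tested probes (1.25% called lower and 5.53% called higher). The genotypes did not overlap on 14 of the 18 probes, 12 of them lower, against 72.2% of all tested probes (37.8% lower and 34.4% higher). At an unadjusted p under 0.05 there were 9 member probes, 8 of them lower, against 38.2% of all tested probes (18.4% lower). The median difference of the 18 probes was -0.49, against -0.01 over all tested probes.

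**Figure D1:**
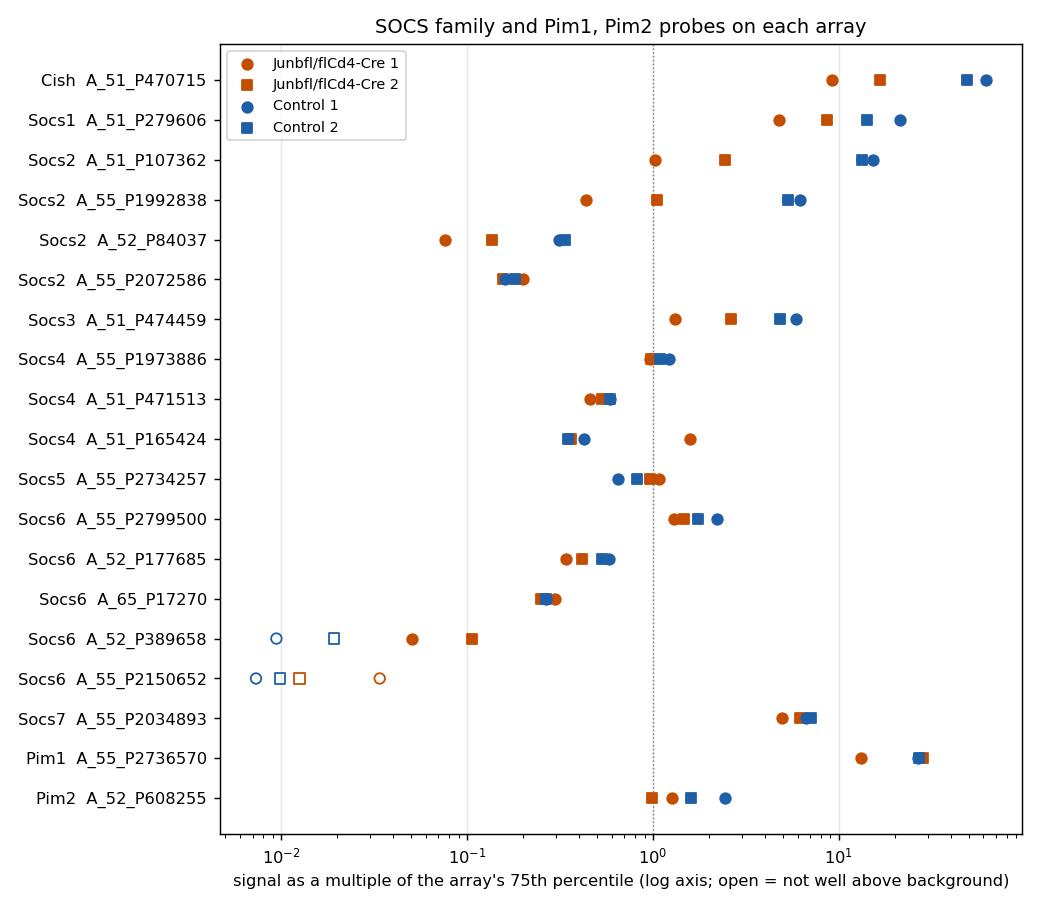
Signal of every probe of the 10 genes on each of the 4 arrays, as a multiple of the array's 75th percentile on a log axis, with Junbfl/flCd4-Cre arrays in orange, Control arrays in blue, circles for array 1, squares for array 2 and open symbols where a signal was not well above background. The orange symbols of Cish, Socs1, Socs3 and 3 of the 4 Socs2 probes lie left of the blue ones, and the orange circle lies left of the orange square for each of them.

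Socs2, known above all for limiting growth hormone signalling through STAT5, was read by 4 probes on chromosome 10. The probe A_51_P107362 at chr10:94875066-94875125 (mm9, minus strand) gave 1.02 and 2.44 on Junbfl/flCd4-Cre arrays 1 and 2, against 15.3 and 13.3 on Control arrays 1 and 2. Both Junbfl/flCd4-Cre arrays lay far below both Controls, and array 1 was the lower. The difference was -3.17 ± 0.47, a 9.03-fold lower level (limma adjusted p = 0.0431), and 0.13% of all tested probes had a difference as low. The second NM_007706 probe, A_55_P1992838 at chr10:94875468-94875527, gave 0.434 and 1.05 in Junbfl/flCd4-Cre cells, against 6.15 and 5.35 in Control cells. It repeated the pattern without overlap, with a difference of -3.09 ± 0.47 and an 8.49-fold lower level (limma adjusted p = 0.0461). Against the mean of the Controls, A_51_P107362 stood at -3.80 on array 1 and -2.55 on array 2, so the direction was the same on each. With any 1 of the 4 arrays left out, this probe was no longer called, with limma adjusted p-values from 0.0954 to 0.172.

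The other Socs2 probes belong to other transcripts, lie further along the minus strand, and did not pass the test. The probe of ENSMUST00000130784 at chr10:94850747-94850806 gave 0.0764 and 0.136 in Junbfl/flCd4-Cre cells, against 0.310 and 0.337 in Control cells. These did not overlap, with a difference of -1.66 ± 0.33 (limma adjusted p = 0.0621). The probe of ENSMUST00000139210 at chr10:94848005-94848064 gave 0.200 and 0.155 in Junbfl/flCd4-Cre cells, against 0.159 and 0.180 in Control cells. Here the genotypes overlapped, the difference was 0.06 ± 0.20 (limma adjusted p = 0.853), and its sign changed with the processing. The Socs2 decrease stands on the NM_007706 probes, and the probes of the gene disagree.

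Cish encodes CIS, which is induced by STAT5 and blocks STAT5 at the IL-2 receptor. Its probe at chr9:107204196-107204255 (mm9, plus strand) gave 9.18 and 16.7 on Junbfl/flCd4-Cre arrays 1 and 2, against 61.9 and 49.2 on Control arrays 1 and 2. Every Junbfl/flCd4-Cre value was below every Control value. The difference was -2.15 ± 0.36, a 4.45-fold lower level, at a limma adjusted p of 0.0501, which misses the threshold, and 0.45% of tested probes had a difference as low. Against the mean of the Controls it was -2.59 on array 1 and -1.72 on array 2. Over the 13 other settings of processing the Cish difference kept its sign, between -2.69 and -1.72, and its limma adjusted p ran from 0.0275 to 0.187, with a call in 4 of them.

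Socs3 binds the receptor chain gp130 and restrains IL-6 signalling through STAT3. Its probe at chr11:117827480-117827539 (mm9, minus strand) gave 1.31 and 2.63 in Junbfl/flCd4-Cre cells, against 5.88 and 4.80 in Control cells. The genotypes did not overlap, and the difference of -1.52 ± 0.40 did not pass the test (limma adjusted p = 0.0828). Socs1 inhibits JAKs directly. Its probe at chr16:10783951-10784010 (mm9, minus strand) gave 4.76 and 8.65 in Junbfl/flCd4-Cre cells, against 21.3 and 14.1 in Control cells. These also did not overlap, with a difference of -1.43 ± 0.39 (limma adjusted p = 0.0882). Against the mean of the Controls, Socs3 stood at -2.03 on array 1 and -1.01 on array 2, and Socs1 at -1.86 on array 1 and -1.00 on array 2. Differences as low as that of Socs3 were seen for 1.62% of tested probes, and as low as that of Socs1 for 1.98%.

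**Figure D2:**
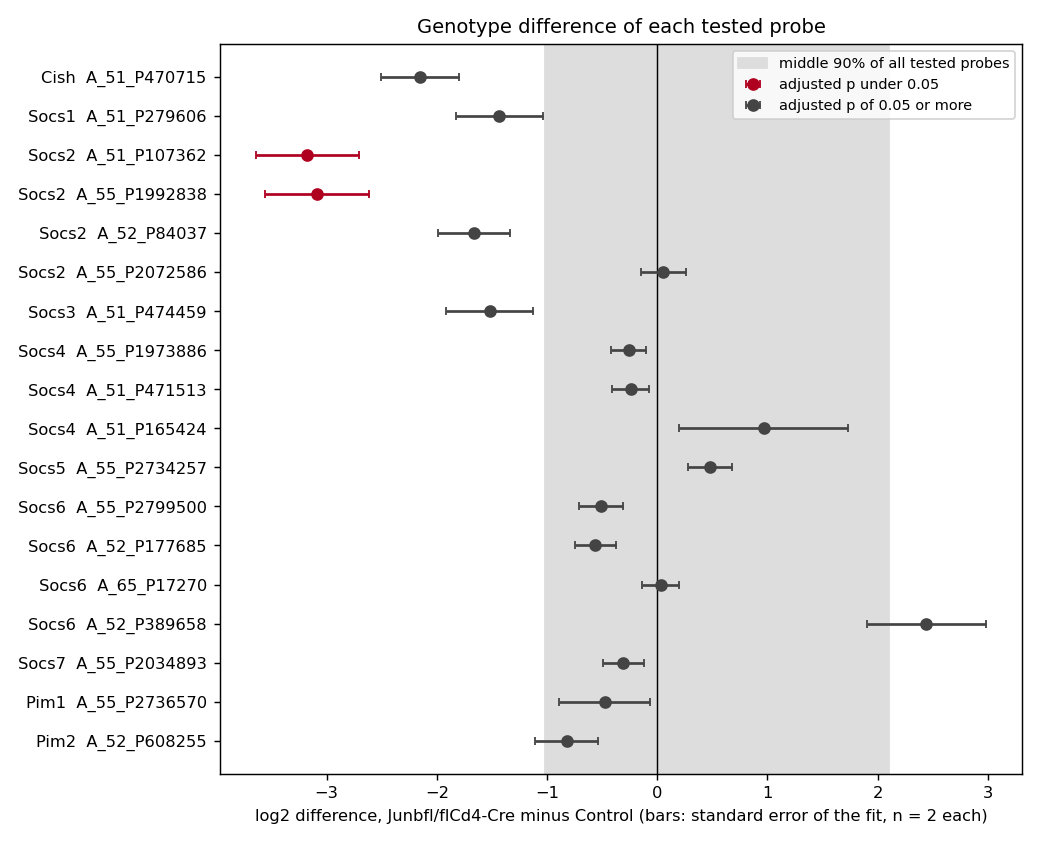
Log2 difference, Junbfl/flCd4-Cre minus Control, of the 18 tested probes with the standard error of the limma fit (n = 2 arrays per genotype), red where the adjusted p was under 0.05. The grey band holds the middle 90% of all tested probes, from -1.02 to 2.10. Cish, Socs1, Socs3 and 3 of the 4 Socs2 probes lie below it, while the probes of Socs5, Socs7, Pim1 and Pim2 lie within it, and the Socs6 point at 2.44, above it, is a fitted value whose Control signals were not well above background.

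In Socs4 to Socs7, 0 of 9 tested probes passed the limma test, against 6.78% of all tested probes. At an unadjusted p under 0.05 there were 2, against 38.2% of all tested probes. Both were of Socs6 and they went opposite ways (-0.56 and 2.44). The higher one entered only through the Junbfl/flCd4-Cre arrays. By brightest probe, Cish and Socs1 to Socs3 spanned -3.17 to -1.43 with a median of -1.84, and Socs4 to Socs7 spanned -0.51 to 0.48 with a median of -0.28. Of the tested probes 6 of 7 were lower in the cytokine-induced genes and 5 of 9 in Socs4 to Socs7. By brightest probe 49.5% of all tested genes were lower. A difference between these sets of genes was not tested.

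Socs5 has been linked to IL-4 and epidermal growth factor receptor signalling. Its probe at chr17:87533521-87533580 (mm9, plus strand) gave 1.07 and 0.964 in Junbfl/flCd4-Cre cells, against 0.648 and 0.823 in Control cells. Both Junbfl/flCd4-Cre values were above both Control values, with a difference of 0.48 ± 0.20 (limma adjusted p = 0.158) that turned to -0.05 when arrays were scaled to their median. Socs7, which has been linked to insulin signalling, gave 4.95 and 6.16 in Junbfl/flCd4-Cre cells, against 6.63 and 7.06 in Control cells, at chr11:97259763-97259822 (mm9, plus strand). The values did not overlap, and the difference was -0.31 ± 0.19 (limma adjusted p = 0.279).

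Socs4, which like Socs5 has been linked to epidermal growth factor receptor turnover, was read by 3 probes that disagreed. The brightest, A_55_P1973886, gave 0.961 and 0.975 in Junbfl/flCd4-Cre cells, against 1.23 and 1.096 in Control cells, a difference of -0.26 ± 0.16 (limma adjusted p = 0.281). A_51_P471513 gave 0.460 and 0.533 in Junbfl/flCd4-Cre cells, against 0.588 and 0.584 in Control cells, a difference of -0.24 ± 0.16 (limma adjusted p = 0.325). Neither probe overlapped between genotypes. The third, A_51_P165424 at chr14:47910233-47910292, gave 1.59 and 0.361 on Junbfl/flCd4-Cre arrays 1 and 2, against 0.427 and 0.351 on the Control arrays. Array 1 alone was high on it, the genotypes overlapped, and the difference was 0.97 ± 0.77 (limma adjusted p = 0.387).

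Socs6, which binds receptor tyrosine kinases such as Kit, was read by 5 probes on chromosome 18. The brightest, A_55_P2799500, gave 1.30 and 1.47 in Junbfl/flCd4-Cre cells, against 2.21 and 1.75 in Control cells, a difference of -0.51 ± 0.20 (limma adjusted p = 0.142). A_52_P177685 gave 0.338 and 0.417 in Junbfl/flCd4-Cre cells, against 0.580 and 0.530 in Control cells, a difference of -0.56 ± 0.19 (limma adjusted p = 0.114). Both were lower without overlap. A_65_P17270 gave 0.295 and 0.249 in Junbfl/flCd4-Cre cells, against 0.267 and 0.265 in Control cells, and so overlapped (0.03 ± 0.17, limma adjusted p = 0.905). A_52_P389658 went the other way, at 0.0503 and 0.106 in Junbfl/flCd4-Cre cells, against 0.0094 and 0.0192 in Control cells, where it was not well above background. Its level was at least 1.86-fold higher in Junbfl/flCd4-Cre cells, without passing the test (limma adjusted p = 0.0702). The fifth probe, A_55_P2150652, was not well above background on any array and was not tested.

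Pim1 and Pim2 did not pass the test and behaved unlike each other across arrays. Pim1, at chr17:29632331-29632390 (mm9, plus strand), gave 13.1 and 28.3 on Junbfl/flCd4-Cre arrays 1 and 2, against 26.5 and 27.1 on Control arrays 1 and 2. Array 1 was low while array 2 was at the Control level, so the genotypes overlapped (-0.48 ± 0.41, limma adjusted p = 0.426). The difference without array 1 was 0.08, and without array 2 it was -1.03. Pim2, at chrX:7459678-7459737 (mm9, plus strand), gave 1.26 and 0.987 in Junbfl/flCd4-Cre cells, against 2.44 and 1.60 in Control cells. The values did not overlap, with a difference of -0.82 ± 0.29 (limma adjusted p = 0.122), and here array 2 was the lower. Pim3, the third Pim kinase, gave 0.559 and 0.943 in Junbfl/flCd4-Cre cells, against 1.28 and 1.04 in Control cells (-0.67 ± 0.32, limma adjusted p = 0.199).

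The Junbfl/flCd4-Cre arrays were unequal in the size of the change. Of the 18 tested probes, 13 were lower on array 1 than on array 2 (72.2%), as were 45.8% of all tested probes. Pim2 and Socs4 A_51_P165424 were among those that went the other way. By the 3′ Junb probe, array 1 was also the one well below the Controls. Among all 18 tested probes, 12 were lower and 3 were higher in both comparisons of arrays that carry the same number. Without array 2 the limma fit called 0 probes on the whole array, with 7343 at an unadjusted p under 0.05, and the differences of the 4 cytokine-induced genes by brightest probe were those given above for array 1. Whether the unequal arrays and the 3′ Junb signal have one source was not tested.

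**Figure D3:**
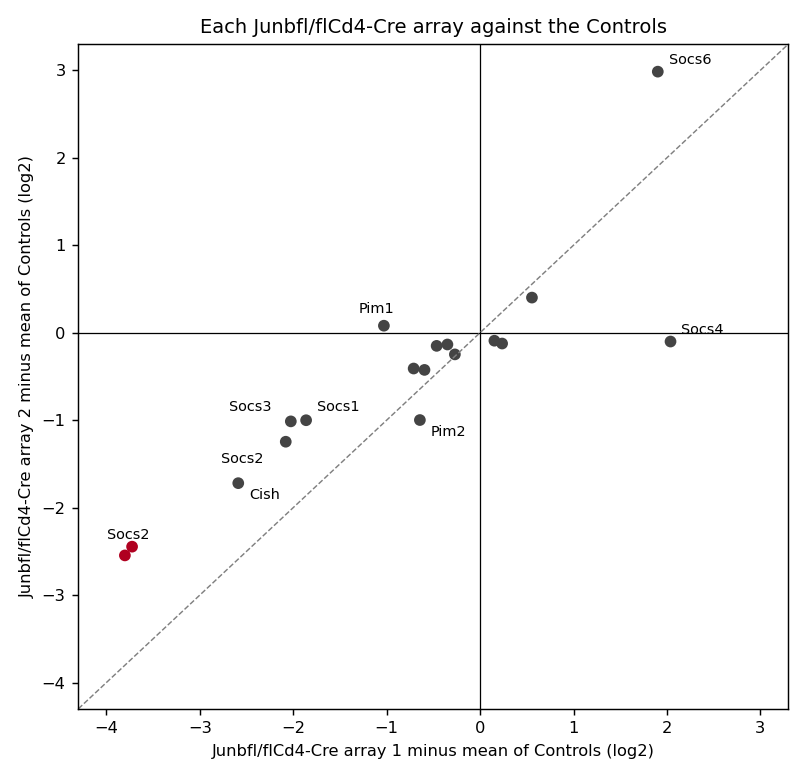
Log2 difference of Junbfl/flCd4-Cre array 1 (horizontal axis) and of array 2 (vertical axis) from the mean of the Control arrays for the 18 tested probes, with the dashed line where both are equal and red for an adjusted p under 0.05. Cish, Socs1, Socs3 and 3 Socs2 probes lie below 0 on both axes and above the line, so their difference was larger on array 1, whereas Pim1 (-1.03 and 0.08) and the Socs4 probe at right (2.04 and -0.10) lie far from 0 on array 1 and near it on array 2.

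The authors' deposited table holds 14 entries for these genes, with log2 signals of its own. In the authors' deposited table the Socs2 difference was -2.81 for NM_007706 (adjusted p = 0.0568). It was -1.04 for ENSMUST00000130784 (adjusted p = 0.0588) and -0.13 for ENSMUST00000139210 (adjusted p = 0.521). In the authors' deposited table the difference of Cish was -1.81 (adjusted p = 0.0658), that of Socs3 -1.27 (adjusted p = 0.107) and that of Socs1 -1.14 (adjusted p = 0.0998). By adjusted p, 0 of the 14 entries were below 0.05 in the authors' deposited table, against 2.41% of its 26594 entries, while 8 of the 14 were below 0.05 before adjustment, against 32.8% of its entries.

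The number of member probes called depended on the processing, as did the share of all probes called. Probes well above background on all 4 arrays gave 3 calls, the same Socs2 probes and Cish, against 4.65% of all probes. With quantile normalization there were 0 calls (1.93% of all probes), and with normexp background correction followed by quantile normalization also 0 (1.29%), with 8 member probes at an unadjusted p under 0.05 in limma in the first case (32.2% of all probes) and 9 in the second (30.9%). With 1 probe per gene there was 1 call, Socs2 (8.45% of all genes), and with the mean over a gene's probes there were 2, Socs2 and Cish (8.93%). Median scaling gave 13 calls (38.6% of all probes), and a block for the array number gave 6 (25.4%).

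**Figure D4:**
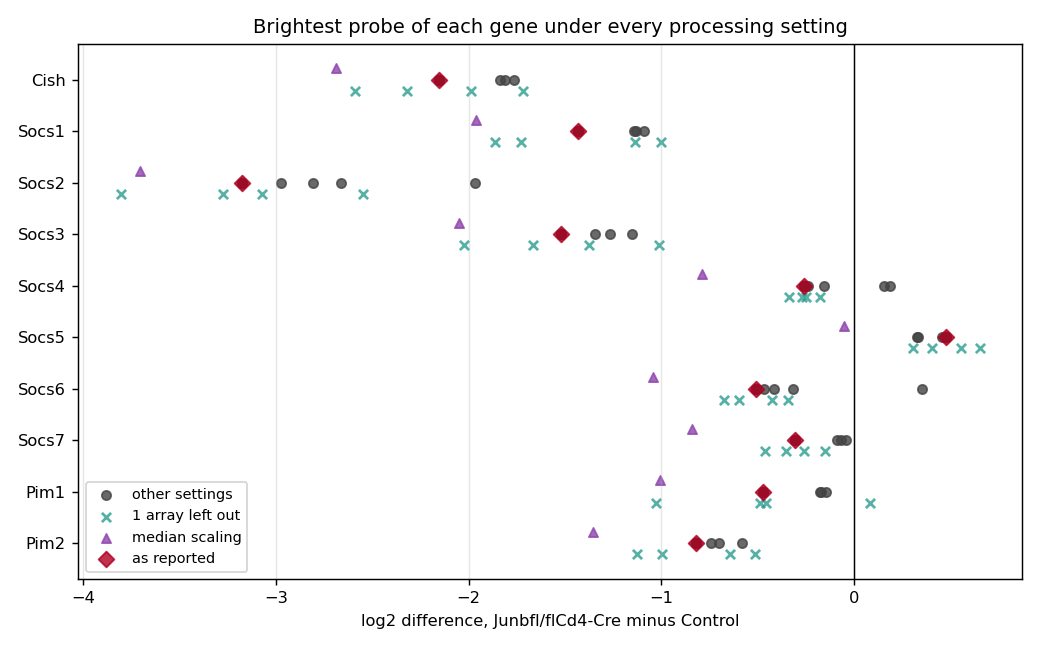
Log2 difference, Junbfl/flCd4-Cre minus Control, of the brightest probe of each gene as reported (red diamonds), with 1 array left out (green crosses), with arrays scaled to their median (purple triangles) and under the other settings (grey circles; for Socs2, Socs4 and Socs6 1 of them is the mean over probes). Cish and Socs1 to Socs3 stay below 0 throughout, whereas Socs4, Socs5, Socs6 and Pim1 each cross 0 under at least 1 setting.

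The genes whose profile over the 4 arrays lay nearest to that of Socs2 or Cish were found by the Euclidean distance between centred log2 values. They were chosen for this likeness on the same arrays, so their values are given as a description with no test. For Cish these included Gata1 (distance 0.21) and Tnfsf11 (0.24), and Socs2 lay further off (1.06). Tnfsf11, which encodes the cytokine RANKL, gave 0.497 and 0.761 in Junbfl/flCd4-Cre cells, against 3.21 and 2.20 in Control cells. Gata1, best known as a transcription factor of red blood cell precursors, gave 0.332 and 0.730 in Junbfl/flCd4-Cre cells, against 2.46 and 2.08 in Control cells.

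For Socs2 the nearest gene well above background on all 4 arrays among the 3 taken by rule was Rgs1 (distance 0.41), a regulator of G protein signalling. It gave 2.12 and 5.03 in Junbfl/flCd4-Cre cells, against 22.4 and 23.7 in Control cells. The others, Zfp735 and 6430571L13Rik, were not well above background on either Junbfl/flCd4-Cre array, so their likeness rests on background values there. Both entered through the Control arrays alone.

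Genes around the SOCS and Pim proteins were read in 9 lists with 106 names, of which 93 were tested, each by its brightest probe. Of these, 10 were called, 8 lower and 2 higher. That is 10.8%, against 8.06% of all genes (1.27% lower and 6.78% higher), and the median difference was -0.34 against 0.01 over all genes. Il9, Ifng, Il17a and Il17f, all called lower, entered only through the Control arrays. With no detection filter 0 of the 106 were called, as were 0 probes on the whole array. Brighter probes ran lower over the whole array, and what part brightness has in the lists below was not tested.

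The signalling chain itself held no called kinase or STAT, which in a list this small is near the share of all genes. Among the 11 JAKs and STATs, 0 passed the limma test, against 8.06% of all genes. At an unadjusted p under 0.05 there were 0, against 38.2% of all tested probes. Of the 11, 5 were lower and 6 higher, with differences from -0.35 to 1.445. The median was 0.17, which turned to -0.37 with median scaling. Stat5a, which drives Cish and Socs2 downstream of IL-2 receptors, gave 23.2 and 25.0 in Junbfl/flCd4-Cre cells, against 19.4 and 18.0 in Control cells (0.36 ± 0.16, limma adjusted p = 0.169). Stat4, which acts downstream of IL-12, gave 5.11 and 4.18 in Junbfl/flCd4-Cre cells, against 3.58 and 2.76 in Control cells (0.56 ± 0.22, limma adjusted p = 0.150). Both lay above their Controls without passing the test, and the Stat5a difference turned to -0.17 with median scaling.

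All 7 partners of the SOCS box in its ubiquitin ligase had lower values, between -0.80 and -0.40, as had 49.5% of all tested genes. All 7 also had signals above 1 on every array, and the brightest 20% of all tested probes had a median difference of -0.35. What part brightness has in these values was not tested. Of the 7, 0 passed the limma test, against 8.06% of all genes, and 3 were at an unadjusted p under 0.05, against 38.2% of all tested probes. Ube2f, a neddylation enzyme, stood at -0.73 ± 0.16 (limma adjusted p = 0.0708) and the cullin Cul2 at -0.80 ± 0.21 (limma adjusted p = 0.0838). The list's median of -0.52 was -0.24 with quantile normalization, -0.21 with normexp and -0.25 from the authors' log2 signals. Of 10 other brakes on JAK-STAT signalling, 0 passed the limma test (2 at an unadjusted p under 0.05) and 8 were lower, with a median of -0.14 (-0.03 with quantile normalization). Among them the phosphatase genes Ptpn1 (-0.81 ± 0.19, limma adjusted p = 0.0741) and Ptpn11 (-0.49 ± 0.15, limma adjusted p = 0.103) had the smallest p.

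Of 18 cytokine receptor chains 15 were tested, and Il12rb1 alone was called (6.67%, against 8.06% of all genes). It encodes a chain shared by the IL-12 and IL-23 receptors, and gave 1.09 and 0.999 in Junbfl/flCd4-Cre cells, against 7.05 and 7.35 in Control cells (-2.79 ± 0.15, limma adjusted p = 0.0265). Both Junbfl/flCd4-Cre arrays were alike and well below the Controls. The median of the chains was -0.12, with 8 lower and 7 higher, and it turned to 0.12 with quantile normalization.

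Of 14 cytokine genes 8 were tested and 3 fell (37.5%, against 1.27% of all genes called lower). Osm, which encodes oncostatin M, gave 1.74 and 2.27 in Junbfl/flCd4-Cre cells, against 6.76 and 5.87 in Control cells (-1.66 ± 0.21, limma adjusted p = 0.0356). With the mean over its probes Osm was lower but not called (-1.42, limma adjusted p = 0.0629). Il9 was at least 47.3-fold lower (limma adjusted p = 0.0265) and Ifng at least 1.36-fold lower (limma adjusted p = 0.0468), and neither was well above background in Junbfl/flCd4-Cre cells. The median over the 8 was -1.38 by fitted values, and -1.33 with those genes at their bounds. Il9 and Ifng entered the 8 only through the Control arrays, and over all 14 genes with no detection filter the median was -0.57. It was -0.56 with normexp and -0.97 from the authors' log2 signals.

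Among 15 tested STAT5 targets other than the SOCS and Pim genes, 14 had lower values, against 49.5% of all tested genes. The median was -0.93, which was -0.58 with the mean over a gene's probes and -0.43 from the authors' log2 signals. Of the 15, 26.7% were called, against 8.06% of all genes (1.27% lower and 6.78% higher). Osm was 1 of the 3 that fell. Lta, which encodes lymphotoxin alpha, gave 5.06 and 10.6 in Junbfl/flCd4-Cre cells, against 52.0 and 46.9 in Control cells (-2.75 ± 0.40, limma adjusted p = 0.0429). Myc, a driver of growth and also a substrate of Pim kinases, gave 4.52 and 5.05 in Junbfl/flCd4-Cre cells, against 12.9 and 10.3 in Control cells (-1.27 ± 0.19, limma adjusted p = 0.0453). With the mean over a gene's probes Myc was lower but not called (-1.00, limma adjusted p = 0.0779), as was Osm, while Lta was still called. Tnfrsf9, the costimulatory receptor 4-1BB, went against these and rose (1.21 ± 0.20, limma adjusted p = 0.0491), at 31.3 and 34.2 in Junbfl/flCd4-Cre cells, against 16.0 and 12.5 in Control cells.

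Among 10 tested STAT3 targets, 9 had lower values, against 49.5% of all tested genes, and 2 fell, against 1.27% of all genes called lower. The 2 are cytokine genes of the Th17 type, and both entered the 10 only through the Control arrays. Il17f gave 0.0729 and 0.0516 on Junbfl/flCd4-Cre arrays 1 and 2, of which only array 1 was well above background, against 4.64 and 8.72 on the Control arrays (-6.70 ± 0.39, limma adjusted p = 0.0265). Il17a, not well above background in Junbfl/flCd4-Cre cells, was at least 8.84-fold lower (limma adjusted p = 0.0451). The median was -0.56, -0.31 with normexp and -0.46 over 11 genes with no detection filter.

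Of 10 Pim relatives and substrates, 8 had lower values, against 49.5% of all tested genes. Myc fell and Cxcr4 rose by their brightest probes, so that 20% were called, against 8.06% of all genes. With the mean over a gene's probes Cxcr4 was still called and Myc was not. The median was -0.58, -0.33 with quantile normalization and -0.17 without Junbfl/flCd4-Cre array 1. Cxcr4, a chemokine receptor that PIM1 is known to phosphorylate in human cells, gave 2.92 and 2.03 in Junbfl/flCd4-Cre cells, against 0.645 and 0.716 in Control cells (1.84 ± 0.24, limma adjusted p = 0.0372).

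**Figure D5:**
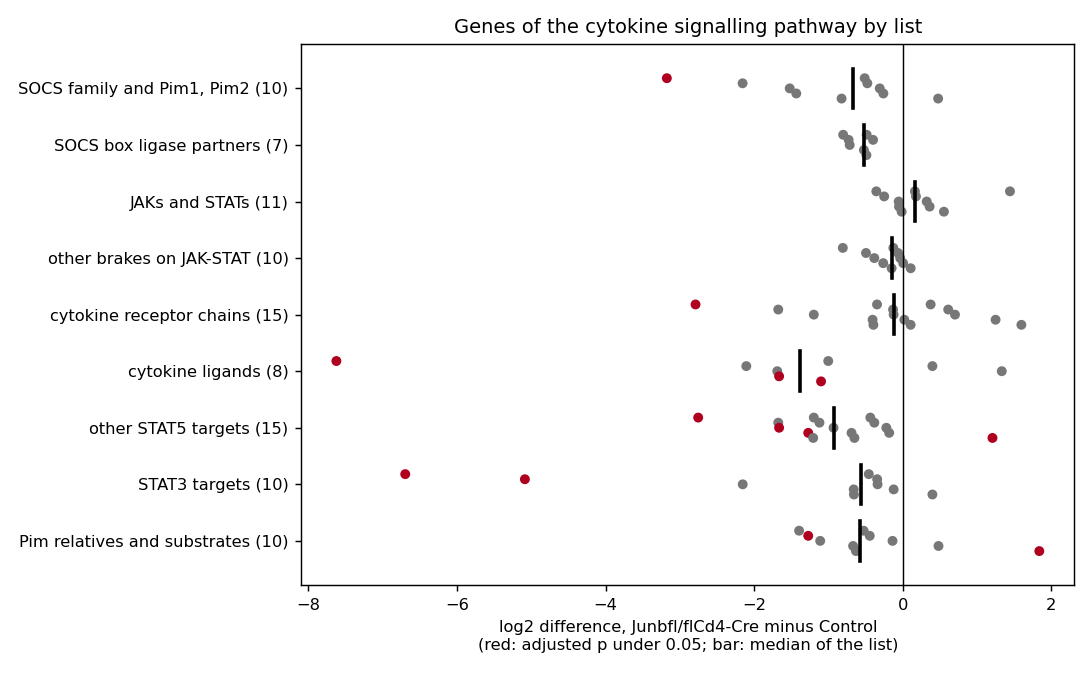
Log2 difference, Junbfl/flCd4-Cre minus Control, of each tested gene in the SOCS and Pim set and in 8 of the 9 lists, by brightest probe, with the list's median as a bar, the number of genes in parentheses and red for an adjusted p under 0.05. Points for Il9, Ifng and Il17a are fitted values of genes not well above background in Junbfl/flCd4-Cre cells. The SOCS box partners all lie left of 0, the STAT5 targets lie left of 0 except Tnfrsf9, and the JAKs and STATs lie on both sides.

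Several facts of the arrays bear on these values. Scaling arrays to their median instead of the 75th percentile moved the median difference over all probes to -0.54, so every difference here is relative to the scale chosen. The median difference was -0.35 in the brightest 20% of tested probes and 0.68 in the dimmest 20%, and Cish, Socs1, Socs7 and Pim1 are in the brightest class. The extraction label names colon, whereas the other labels name cultured Treg cells. Of 9 colon epithelium markers, Krt20, Cdh1, Vil1 and Muc2 were not well above background on any array, and the summed signal of the 9 was 0.774 and 0.864 on Junbfl/flCd4-Cre arrays, against 0.724 and 0.722 on Control arrays. All 9 T cell markers on the array were well above background on every array, with sums of 877 and 792 in Junbfl/flCd4-Cre cells, against 976 and 968 in Control cells, and among them Thy1 (-0.98, limma adjusted p = 0.0452) and Cd2 (-1.33, limma adjusted p = 0.0495) were called lower. All 5 Treg markers were above background too, with sums of 106 and 120 in Junbfl/flCd4-Cre cells, against 185 and 145 in Control cells. They did not go one way. Ikzf2 was called higher (4.56, limma adjusted p = 0.0306), at 6.70 and 7.09 in Junbfl/flCd4-Cre cells, against 0.462 and 0.184 in Control cells, and Ctla4 was called lower (-1.47, limma adjusted p = 0.0484), while Tnfrsf18 stood at 0.13 (limma adjusted p = 0.777). Foxp3 gave 2.49 and 5.78 in Junbfl/flCd4-Cre cells, against 8.51 and 8.99 in Control cells (-1.20, limma adjusted p = 0.135), and was lower on array 1 than on array 2, as Cish was. Il2ra, also in the list of receptor chains, gave 19.1 and 36.3 in Junbfl/flCd4-Cre cells, against 85.0 and 83.2 in Control cells. Its difference of -1.67 did not pass the test (limma adjusted p = 0.0669), and here too array 1 was the lower.

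Summed markers of other cells also differed between the genotypes. The 8 myeloid markers summed to 63.7 and 34.4 in Junbfl/flCd4-Cre cells, against 27.1 and 18.3 in Control cells, with Adgre1 and Fcgr1 not well above background on any array. Most of that sum was Itgam, at 54.9 and 21.0 in Junbfl/flCd4-Cre cells, against 23.7 and 13.4 in Control cells (limma adjusted p = 0.292). Of the 6 myeloid markers tested, 0 were called. The 6 B cell markers summed to 7.16 and 4.74 in Junbfl/flCd4-Cre cells, against 3.56 and 1.39 in Control cells, and Ms4a1 among them was called higher (3.18, limma adjusted p = 0.0274). The 4 markers of CD8 and NK cells summed to 3.73 and 4.82 in Junbfl/flCd4-Cre cells, against 2.94 and 2.55 in Control cells, with Ncr1 not well above background on any array. Most of that sum was Cd8b1, the only one of the 4 that was tested, and it did not pass (0.55, limma adjusted p = 0.106). The 6 stromal markers summed to 7.39 and 9.998 in Junbfl/flCd4-Cre cells, against 65.7 and 43.0 in Control cells, nearly all of it Vim (-2.82, limma adjusted p = 0.0335), which T cells also express. The stromal markers other than Vim did not follow that sum: Dcn and Col1a1, neither of them well above background in Control cells, were called higher (limma adjusted p = 0.0276 and 0.0394), and Col1a2 (1.14) and Pecam1 (0.47) were higher without passing the test. What part these shifts have in the SOCS and Pim values was not tested.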

How the data were processed

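RNA of 4 samples, 2 per genotype, was read on single-colour Agilent arrays, grouped and numbered by their titles. Agilent Feature Extraction 11.5.1.1 read the scans, per the file headers, and gave a mean intensity, a background intensity and a processed intensity per spot, background-subtracted and not scaled between arrays. The authors also deposited log2 signals per accession with log2 differences, p-values, adjusted p-values and moderated t and log odds scores; no source used here states how they were made. Their deposited flags, 1 or 0 per spot, mark signals well above background and uneven or outlying spots.

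From 59305 non-control spots per array (56605 probes), 108 to 215 uneven or outlying spots were left out, which dropped 295 probes and left 56310. No non-control spot was saturated, and 66.3% and 61.0% of non-control spots on the Junbfl/flCd4-Cre arrays, and 60.5% and 59.3% on the Control arrays, were well above background. The processed signal was averaged over spots of a probe, and the log2 of the array's 75th percentile was then subtracted from its log2 value. Those percentiles were 119 and 101 in Junbfl/flCd4-Cre arrays, against 151 and 145 in Control arrays. Probes were tested if both arrays of 1 or both genotypes were well above background, using lmFit and eBayes of limma 3.58.1 in R 4.3.3 with no covariate and Benjamini-Hochberg adjustment over all 33605 probes. Where a genotype had no array above background, its signals were set no lower than the array's lowest such signal and the fold is given as "at least". The number of arrays limits the precision. Symbols were updated through RefSeq names of GRCm38.p6 (33731 probes by accession, 486 by synonym, 9409 already current, 12684 kept as in the file); probe positions are those of the files, on mm9. All arrays shared 1 slide and 1 scan, so a slide block could not be made.

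Members, lists and tests were chosen with earlier results of these data known. The naming rule takes every probe of the 10 genes, Junb, Pim3, up to 4 called genes per list or otherwise the 2 with the smallest p, and the 3 nearest genes with a plain symbol for Socs2 and for Cish; 1 list and 1 of these genes are not reported here. Python 3.11.15 made the tables and figures with numpy 2.4.6, pandas 2.3.3 and matplotlib 3.10.9.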

Additional observations from a re-analysis of the deposited data

How the results depend on the processing

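Over all probes 2277 were called (81.6% higher). The count was 0 without a detection filter (12028 at an unadjusted p under 0.05), 1377 with probes above background on all 4 arrays, 647 with quantile normalization, 433 with normexp and quantile normalization, 641 from the authors' log2 signals, 12969 with median scaling (18.5% higher) and 0 with any 1 array left out (unadjusted, 7314 to 11360). Of the member probes 2 were called, against 0 without a filter, with quantile normalization, with normexp, from the authors' log2 signals and with any 1 array left out, 1 with the brightest probe per gene and 13 with median scaling. In these cases 5 to 14 member probes were at an unadjusted p under 0.05. Of the pathway genes 10 were called, against 0 without a filter (29 unadjusted), 6 above background on all arrays, 5 with quantile normalization, 5 with normexp, 45 with median scaling and 0 with any 1 array left out (22 to 31 unadjusted). With the array number as a replicate block, limma called 8520 probes, 6 member probes (Cish, Pim2, Socs2 and Socs6) and 26 pathway genes. The labels do not say that same-numbered arrays share an origin, and the number of pairs is too small to show it (the array 1 minus array 2 differences of the genotypes correlated at 0.45 across 33605 probes, which are not independent). Cish, Socs1, Socs2 (A_51_P107362) and Socs3 kept their sign throughout, and of 347 values of the other named genes and of Junb under these alternatives 107 lost a call, 15 gained one and 3 changed sign. Signs that changed were the 3′ Junb probe (-2.85 to 0.65 with 1 array left out), Stat5a (-0.17 with median scaling, -0.028 with the mean of probes), Pim1 (-1.03 to 0.079 with 1 array left out), Socs5 (-0.055 with median scaling), Socs4 A_51_P165424 (-0.10 to 2.04 with 1 array left out), Socs4 A_55_P1973886 (0.16 with the mean of probes, 0.18 from the authors' signals), Socs6 A_55_P2799500 (0.35 with the mean of probes), Socs2 A_55_P2072586 (-0.36 with quantile normalization, -0.48 with median scaling, -0.086 with normexp, -0.12 to 0.24 with 1 array left out, -0.033 without Control array 1, -0.13 from the authors' signals) and Socs6 A_65_P17270 (-0.24 with quantile normalization, -0.50 with median scaling, -0.094 with normexp, -0.092 to 0.15 with 1 array left out, -0.16 from the authors' signals). Values with the mean of probes are for the whole gene over its tested probes, so they are not changes of the probe named. The authors' signals are per accession, which several probes can share. The cause of the other changes was not tested. Leaving out an array leaves a genotype with 1 array, assumed to vary like the other genotype.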
